A study of Mus musculus with 6 samples.

Results

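The mRNA of surface proteins that mark stem and progenitor cells of the mammary gland was followed in Wnt1-YL cells after knockdown of Sca-1. The arrays do not measure protein on the cell surface, which mRNA need not follow. The genes were Cd24a, Cd44, Prom1, Epcam, Procr, Lgr5, Kit, Thy1, Eng and Cd14, and every probe set that the array's annotation assigns to them was taken. This gave 19 probe sets of 10 genes, out of 45101 probe sets on the array. Wnt1-YL is 1 mouse mammary cell line. It was established by the authors out of an invasive tumor that arose in an FVB/n mouse transgenic for MMTV-Wnt1, where the mammary tumor virus promoter drives Wnt1. Both groups were transduced with a pLKO lentivirus, selected with puromycin and grown in culture with serum, insulin and EGF. The control group carried an shRNA against luciferase (shLuc, n = 3 arrays) and the other an shRNA against Sca-1 (shSca-1, n = 3 arrays). The labels call the replicates biological and do not say whether each was a separate culture, so the p-values may reflect only technical spread.

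Antibodies against these proteins are used to separate the cell types of the mouse mammary gland. CD24 and EpCAM are stronger on luminal than on basal cells, Kit and CD14 mark luminal progenitors, and CD133, the product of Prom1, is found on luminal cells. Procr and Lgr5 were described on subsets of basal cells with repopulating activity, and Thy1 is also used as a basal marker. CD44 is common on basal-like tumor cells, and endoglin (Eng) is best known from endothelial cells. Sca-1 itself, the product of Ly6a, belongs to the same set of sorting markers.

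Ly6a had an intensity of 285 to 314 on the shSca-1 arrays and of 2843 to 7646 on the shLuc arrays, where 2843 was shLuc replicate 3 (log2 difference -4.17, adjusted p = 0.051 from limma, and -4.64, adjusted p = 5.2e-07, without that array). This array stood apart. Of 16 measured luminal markers, 14 were at 100 or more on it, against 1 or 2 on each other array, and their summed intensity was 28922 against 639 to 719.6 elsewhere. The 12 basal markers summed to 28810.0 on it and to 44303 to 47211 elsewhere, with Krt5, a basal keratin, at 3141 against 9576 to 11431. However, 8 of the 12 were at 100 or more on every array, this one included. Krt14 and Vim, also among the brightest, fell less, with 7779 against 10092 to 11849 and 10025 against 10999 to 12812. No endothelial marker of 10 reached 100 on any array, Kdr and Cdh5 being at most 82.9 and 40.8. Of 11 blood cell markers, 2 or 3 reached 100 on each array, with Ptprc, the pan-leukocyte gene, named after its values were seen, at most 20.5 and Adgre1 between 111 and 164. Cd68, a macrophage gene, was 311, 298 and 32.9 on shLuc replicates 1, 2 and 3 and 53.9, 77.6 and 212 on shSca-1 replicates 1, 2 and 3, and it was past the study's thresholds only without shLuc replicate 3 (-1.66 on the log2 scale, adjusted p = 0.13 from limma). Of 10 fibroblast markers, 2 to 4 did, with Postn, the brightest by its mean log2 intensity, between 108 and 1015. Fewer cells of a type and less RNA per cell cannot be told apart in such samples. The median intensity of an array was 37.3 to 40.6, and values below it are read here as near background. A fold against such a value is given as a lower bound, with the array's median in its place, while counts of probe sets over 4 times another array use the values as deposited.

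None of the 10 genes passed the study's thresholds, or an adjusted p under 0.05, after knockdown of Sca-1. In limma, 0 of the 19 probe sets were higher and 0 were lower at the study's thresholds, which were a fold change over 1.5 with p under 0.01 before adjustment. Of all probe sets tested, 0.5% were higher and 1.33% lower at these thresholds. At an adjusted p under 0.05, 0 of the 19 passed in limma or by the methods' t-test, as did 0% and 0.00888% of all probe sets. At an unadjusted p under 0.05, 3 of the 19 passed in limma, against 9.26% of all, and 1 by the methods' t-test, against 8.97%. Without shLuc replicate 3, the counts in limma were again 0 higher and 0 lower at the study's thresholds, passed by 0.953% and 2.61% of all probe sets. At an adjusted p under 0.05 they were 0 and 0, against 0.842% and 1.92%. At an unadjusted p under 0.05, 4 of the 19 passed on these 5 arrays, against 16.3% of all. The array of shLuc replicate 3 differed from the others in several markers. On it, 7 of the 19 probe sets were at 100 or more and over 4 times every other array, as were 1.26% of all probe sets. Another 2 were over 4 times lower on it than on every other array, those being at 100 or more, as were 0.469% of all. On each other array the same measures gave at most 0.0178% (8) and 0.00222% (1) of all probe sets. Since this array had been seen to stand apart before the genes were chosen, these counts are a description.

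**Figure D1:**
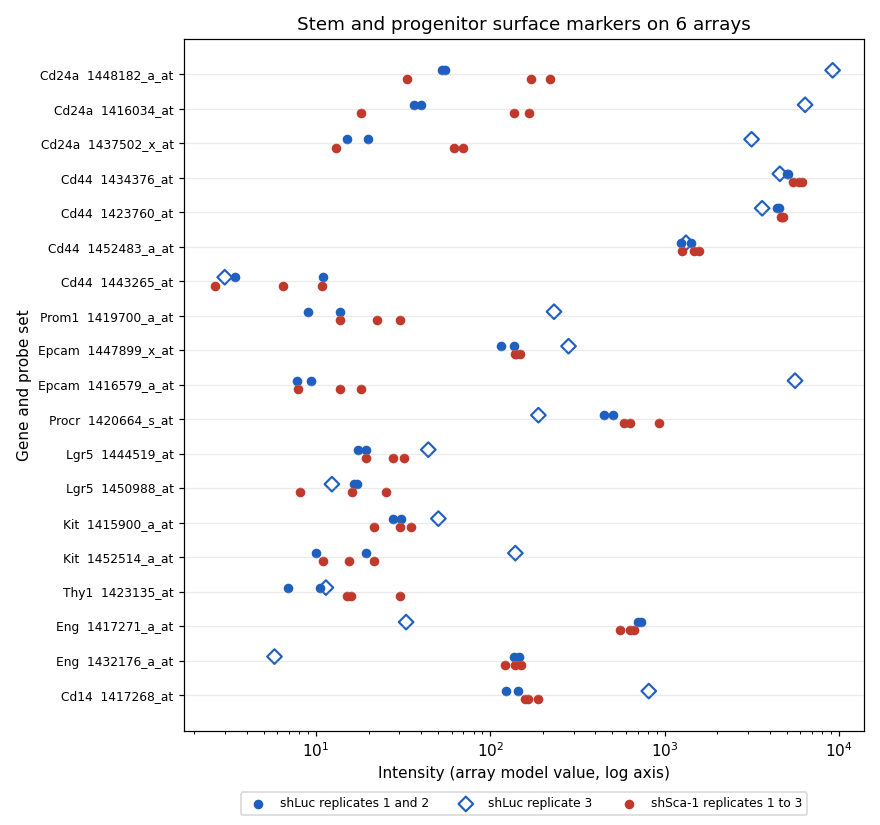
Intensity of the 19 probe sets of 10 surface marker genes on 6 arrays, on a log axis, with blue for shLuc and red for shSca-1. Open diamonds are shLuc replicate 3, which lies far right of the other arrays for Cd24a, Prom1 and Epcam 1416579_a_at and far left for Eng.

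Cd24a encodes CD24, a small, heavily glycosylated protein held in the membrane by a GPI anchor, as Sca-1 is. By probe set 1416034_at its intensity was 39.9, 36.5 and 6385 on shLuc replicates 1, 2 and 3, and 137, 167 and 18.0 on shSca-1 replicates 1, 2 and 3. Probe set 1448182_a_at gave 52.6, 54.9 and 9186 in shLuc cells and 171, 219 and 33.4 in shSca-1 cells. The values by 1437502_x_at were 15.1, 19.9 and 3149.5 for shLuc and 62.0, 69.8 and 13.0 for shSca-1. All 3 probe sets therefore placed shLuc replicate 3 highest and shSca-1 replicates 2 and 1 next. The values of shLuc replicates 1 and 2 and of shSca-1 replicate 3 were lower. Several of these lay near background, so their order is not read. The intensity on shLuc replicate 3 was 38.2, 42.0 and 45.1 times that of the highest other array. The groups overlapped with and without this array. By 1448182_a_at shSca-1 minus shLuc on the log2 scale was -1.47, with a standard error of 1.97 and a 95% interval of -6.13 to 3.19 (adjusted p = 0.86 from limma). Leaving out shLuc replicate 3 turned it to 1.00 (standard error 0.70, adjusted p = 0.56 from limma), with an interval of -0.62 to 2.63.

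Among the shSca-1 arrays, Cd24a was split between replicates 1 and 2 on the one side and replicate 3 on the other. On replicate 3 it was below the array median by all 3 probe sets, and the lower of replicates 1 and 2 was at least 3.67-fold higher by 1416034_at and at least 4.59-fold higher by 1448182_a_at. By 1437502_x_at this lower bound was only 1.66-fold. Of 45037 probe sets, 14 (0.0311%) were at 100 or more on both of the former and over 4 times lower on the latter, and 2 of these 14 were Cd24a. The same comparison gave 0 probe sets for shSca-1 replicate 1 and 0 for shSca-1 replicate 2. The 14 were singled out after the Cd24a values were seen. Among the others was Pdgfrb, which encodes a receptor for platelet-derived growth factor, at 157, 169.6 and 3.26 on shSca-1 replicates 1, 2 and 3. It was at most 27.5 on the shLuc arrays. Clu, which encodes the secreted chaperone clusterin, was present with 3 probe sets, and by 1437689_x_at it was 262, 260.3 and 25.7. As for Cd24a, its highest value was on shLuc replicate 3, at 597, and shLuc replicates 1 and 2 had 48.0 and 42.2. Ccn2, a matricellular protein gene, was 2093, 2069 and 387 on the shSca-1 arrays and 371, 309.9 and 2924 on shLuc replicates 1, 2 and 3. Not all of the 14 were high on shLuc replicate 3. On shLuc replicates 1, 2 and 3, Ctla2a was 273, 264 and 42.7 and Postn was 1015, 877 and 433.

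Epcam encodes an adhesion protein of epithelial cells, and its probe sets differed in how far they set shLuc replicate 3 apart. Probe set 1416579_a_at gave 7.74, 9.30 and 5591 on shLuc replicates 1, 2 and 3. On shSca-1 replicates 1, 2 and 3 it was 13.6, 18.1 and 7.84. It was thus below the array medians on 5 arrays and at least 141-fold higher on shLuc replicate 3. By 1447899_x_at the values were 137, 115 and 281 in shLuc cells and 148, 138 and 141 in shSca-1 cells, and shLuc replicate 3 was 1.89 times the highest other array. The suffix x marks probe sets whose oligonucleotides may also bind other transcripts. The log2 difference by 1416579_a_at was -2.57 ± 2.38 (SE) with all 6 arrays and 0.55 ± 0.53 (SE) with the 5 arrays other than shLuc replicate 3, and neither passed (adjusted p = 0.79 and 0.69 from limma). By 1447899_x_at it was -0.20 and 0.18, with intervals of -0.96 to 0.56 and -0.14 to 0.51.

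Prom1, which encodes the pentaspan membrane protein CD133 of membrane protrusions, was measured by 1 probe set. Its intensity was 13.7, 8.97 and 232 on shLuc replicates 1, 2 and 3 and 22.2, 30.3 and 13.7 on shSca-1 replicates 1, 2 and 3. It was near background on 5 arrays and at least 5.86-fold higher on shLuc replicate 3. The log2 difference was -0.54 ± 1.16 (SE) with all arrays and 0.92 ± 0.48 (SE) with shLuc replicate 3 left out, and neither passed (adjusted p = 0.92 and 0.41 from limma).

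Kit and Cd14, both markers of luminal progenitors, were also highest on shLuc replicate 3. Kit encodes the receptor tyrosine kinase for stem cell factor. Its intensity by 1452514_a_at read 10.0, 19.4 and 139 on shLuc replicates 1, 2 and 3 and 15.5, 11.0 and 21.5 on shSca-1 replicates 1, 2 and 3. By this probe set Kit was near background on the other arrays and at least 3.52-fold higher on shLuc replicate 3. The count of probe sets over 4 times every other array includes it by the values as deposited. Probe set 1415900_a_at gave 50.3 on shLuc replicate 3 and 21.4 to 35.0 on the others, so only 1 of its 2 probe sets reached 100 there. The log2 difference of Kit by 1452514_a_at was -0.96 on 6 arrays and 0.15 without shLuc replicate 3, and neither passed (adjusted p = 0.79 and 0.93 from limma). Cd14 encodes a GPI-anchored co-receptor for bacterial lipopolysaccharide. Cd14 intensity reached 144, 123 and 809.9 on shLuc replicates 1, 2 and 3 and 158, 188 and 165 on shSca-1 replicates 1, 2 and 3. Without shLuc replicate 3, each shSca-1 array was above both shLuc arrays, and the log2 difference was 0.36 (standard error 0.14, unadjusted p = 0.039, adjusted p = 0.28 from limma). On 6 arrays it was -0.51 (standard error 0.67, adjusted p = 0.85 from limma).

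Eng and Procr went the other way and were lowest on shLuc replicate 3. Eng encodes endoglin, a co-receptor for ligands of the TGF-β family. Probe set 1417271_a_at read 698, 729 and 32.8 on shLuc replicates 1, 2 and 3 and 635, 669 and 551 on shSca-1 replicates 1, 2 and 3. By 1432176_a_at it was 137, 146 and 5.77 in shLuc cells and 149, 138 and 122 in shSca-1 cells. On shLuc replicate 3 both were below the array median, and the lowest of the other 5 arrays was at least 13.5-fold and at least 3.00-fold higher. Of the endothelial markers, 0 reached 100 on any array. With shLuc replicate 3 left out, 1417271_a_at had a log2 difference of -0.21 (95% interval -0.45 to 0.03, adjusted p = 0.37 from limma) and 1432176_a_at of -0.05 (-0.39 to 0.28, adjusted p = 0.90 from limma). On 6 arrays these were 1.27 and 1.48 (adjusted p = 0.77 and 0.74 from limma).

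Procr encodes the endothelial protein C receptor, which presents protein C for activation. Its intensity was 505, 448 and 188 on shLuc replicates 1, 2 and 3 and 581, 635 and 925 on shSca-1 replicates 1, 2 and 3. Each shSca-1 array was above each shLuc array, and the groups did not overlap with or without shLuc replicate 3. The lowest other array was 2.38 times shLuc replicate 3. Its mean was 381 ± 169 in shLuc cells (SD, n = 3) and 714 ± 185 in shSca-1 cells (SD, n = 3). The log2 difference was 1.00 (standard error 0.38, unadjusted p = 0.035, adjusted p = 0.50 from limma). This unadjusted p also rests on the fit. It was 0.11 by the methods' t-test, and in limma 0.064 with no trend in the variance and 0.062 with a replicate block. Without shLuc replicate 3 the log2 difference of Procr was 0.55 (standard error 0.19, unadjusted p = 0.018, adjusted p = 0.19 from limma), with an interval of 0.12 to 0.99. It thus failed the correction over all probe sets in both. The 3 shSca-1 arrays spanned a range of 1.59-fold, the widest among the 8 member probe sets at 100 or more on all arrays but shLuc replicate 3, and shLuc replicates 1 and 2 differed by at most 1.19-fold over these 8.

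The promoters of Epcam and Prom1, which were high on shLuc replicate 3, are shown with those of Eng and Procr, which were low on it. Snail and ZEB proteins, known as repressors of epithelial genes, bind E-boxes with the letters CAGGTG, or CACCTG on the other strand. The sequences are the 250 bases before the most upstream RefSeq start of each gene in build GRCm38.p6, 5′ to 3′ on the strand of the gene, with each such E-box in capitals.
Epcam (chr17:87635729-87635978, plus strand): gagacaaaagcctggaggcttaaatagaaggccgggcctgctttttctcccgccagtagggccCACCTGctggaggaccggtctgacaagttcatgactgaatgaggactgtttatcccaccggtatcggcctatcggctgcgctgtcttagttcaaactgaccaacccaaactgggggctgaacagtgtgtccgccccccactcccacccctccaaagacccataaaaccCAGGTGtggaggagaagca
Prom1 (chr5:44101737-44101986, minus strand): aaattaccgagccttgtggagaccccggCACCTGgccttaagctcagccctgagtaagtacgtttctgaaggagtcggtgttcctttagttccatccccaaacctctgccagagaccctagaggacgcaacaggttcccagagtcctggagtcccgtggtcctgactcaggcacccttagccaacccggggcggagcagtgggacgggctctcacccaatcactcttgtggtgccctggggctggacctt
Eng (chr2:32646345-32646594, plus strand): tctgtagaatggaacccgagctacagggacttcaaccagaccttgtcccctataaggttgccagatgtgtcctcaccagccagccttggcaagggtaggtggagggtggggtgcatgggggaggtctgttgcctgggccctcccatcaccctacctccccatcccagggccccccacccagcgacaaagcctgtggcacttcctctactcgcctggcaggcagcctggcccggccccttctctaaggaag
Procr (chr2:155750967-155751216, plus strand): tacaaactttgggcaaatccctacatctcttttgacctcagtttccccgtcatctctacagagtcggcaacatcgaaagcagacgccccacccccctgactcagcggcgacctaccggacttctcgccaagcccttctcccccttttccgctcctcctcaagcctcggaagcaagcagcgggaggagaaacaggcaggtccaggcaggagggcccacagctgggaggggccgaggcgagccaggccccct
Epcam had 2 matches and Prom1 had 1, whereas Eng and Procr had 0. Kit, which was high on shLuc replicate 3 by 1 probe set, and Cd44 had 0 as well. Of 27025 promoters of this length, 17.1% held at least 1 match. A match is a description of these letters and not a binding site. Promoter entries were found for 6 of the 10 genes.

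Cd44, the receptor for hyaluronan in the extracellular matrix, was abundant on every array by 3 of its 4 probe sets. By 1434376_at its intensity was 5096.5, 5034 and 4574 on shLuc replicates 1, 2 and 3 and 5418, 5853 and 6120.45 on shSca-1 replicates 1, 2 and 3. By 1423760_at it was 4432, 4514 and 3619.8 in shLuc cells and 4662, 4763 and 4719 in shSca-1 cells. The groups did not overlap by either probe set. By 1434376_at the log2 difference was 0.24 (95% interval 0.03 to 0.45, unadjusted p = 0.029, adjusted p = 0.48 from limma), and by 1423760_at it was 0.18 (-0.07 to 0.43, adjusted p = 0.66 from limma). By 1452483_a_at the groups overlapped, with 1245 to 1408 against 1249 to 1581, and the log2 difference was 0.11 (-0.17 to 0.38). The highest upper limit of these 3 intervals was 0.45, which reflects only the spread between these arrays. The interval by 1434376_at also rests on the fit. Its unadjusted p from limma was 0.14 with no trend in the variance and 0.070 with a replicate block. Probe set 1443265_at lay between 2.64 and 11.0 on all arrays, near background. Leaving out shLuc replicate 3 gave log2 differences of 0.19 by 1434376_at, 0.08 by 1423760_at and 0.11 by 1452483_a_at. On that array, Cd44 was 0.15 and 0.31 below the mean of shLuc replicates 1 and 2 on the log2 scale by 1434376_at and 1423760_at, where Cd24a was 7.39 above it by 1416034_at.

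Thy1 was near background on all arrays, and so was Lgr5 but for 1 of its 2 probe sets on shLuc replicate 3. Thy1 encodes a GPI-anchored protein of the immunoglobulin superfamily. Its intensity was 6.91, 10.5 and 11.4 on shLuc replicates 1, 2 and 3 and 15.9, 15.0 and 30.3 on shSca-1 replicates 1, 2 and 3. The groups did not overlap, but all values were below the array medians. The log2 difference was 1.04 (standard error 0.42, unadjusted p = 0.042, adjusted p = 0.52 from limma), and 0.31 when intensities under 16 were set to 16. Lgr5, a receptor for R-spondins and a target gene of Wnt signaling, was 17.5 to 44.0 by 1444519_at and 8.13 to 25.3 by 1450988_at over the 6 arrays, with the highest value of 1444519_at on shLuc replicate 3. Its log2 differences were 0.07 (95% interval -0.94 to 1.08) and -0.03 (-1.15 to 1.08). Lgr5 was thus not above background on any array but for 44.0 on shLuc replicate 3, close to that array's median of 40.6.

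Over all members, 4 probe sets were higher in shSca-1 cells with no overlap of the groups, those of Procr and Thy1 and 2 of Cd44, and 0 were lower. Of all probe sets, 6.7% and 9.81% did so. Without shLuc replicate 3, 7 were higher and 1, of Eng, was lower, as were 14.1% and 19.6% of all. The median log2 difference of the 19 was -0.03 on 6 arrays and 0.19 on these 5, beside -0.03 and -0.04 over all probe sets. Of the 19, 11 had a difference of the other sign when shLuc replicate 3 was left out.

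**Figure D2:**
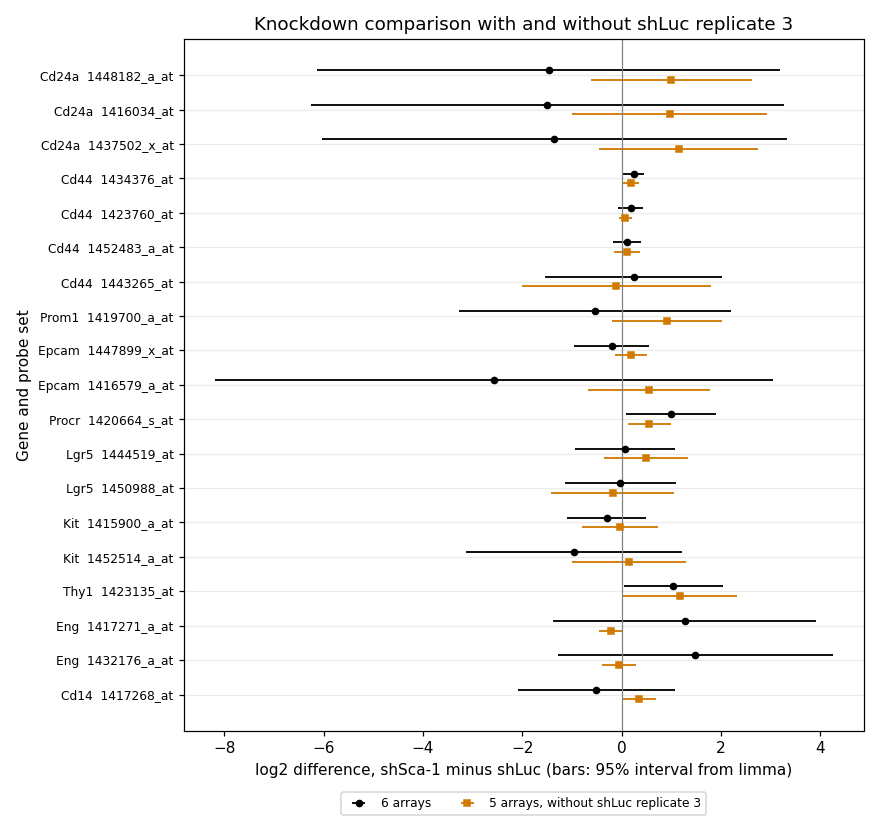
Log2 intensity of shSca-1 minus shLuc for the 19 probe sets, with 95% intervals from limma, on 6 arrays (black) and without shLuc replicate 3 (orange). The interval of Epcam 1416579_a_at runs from -8.18 to 3.05 on 6 arrays and from -0.67 to 1.78 on 5, while those of 3 Cd44 probe sets reach at most 0.45.

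Genes of other surface proteins used to sort mammary or tumor cells were compared by the brightest probe set of each. Brightness was the mean log2 intensity over all 6 arrays. Of 29 measured, 1 was higher and 1 lower at the study's thresholds in limma, against 0.5% and 1.33% of all probe sets. At an adjusted p under 0.05, 0 passed, as did 0% of all. The lower was Ly6a, the target of the shRNA. The higher was Itga2, the α2 integrin gene, with 50.4, 61.9 and 36.95 in shLuc cells and 82.9, 86.3 and 135 in shSca-1 cells. The 36.95, on shLuc replicate 3, was below that array's median of 40.6 and so near background. Of the integrins that the paper examined on the cell surface by flow cytometry, α2 among them, only α5 differed between the groups. Itga2 had a log2 difference of 1.02 (standard error 0.28, unadjusted p = 0.0087, adjusted p = 0.35 from limma). By the methods' t-test on 6 arrays Itga2 missed the thresholds, which 1 of the 29 passed. It also missed them without shLuc replicate 3 (0.82, unadjusted p = 0.012 from limma). In that fit 0 were higher and 2 were lower, against 0.953% and 2.61% of all probe sets. The 2 were Ly6a and Notch1, a receptor gene named after its values were seen (-0.68, adjusted p = 0.075 from limma). Cd9, a tetraspanin gene, had 0.24 (adjusted p = 0.61 from limma). The integrin genes Itgb1 and Itga6, whose products CD29 and CD49f are paired with CD24 to enrich stem cells, had 0.11 and 0.25 (adjusted p = 0.82 and 0.89 from limma) and were chosen after their values were seen. Leaving out shLuc replicate 3 turned these to -0.0064 and -0.29 (adjusted p = 0.98 and 0.38 from limma). Of the 29, 2 were at 100 or more on shLuc replicate 3 and over 4 times every other array, against 1.26% of all probe sets. The 2 were Cd200, an immunoglobulin superfamily gene, with 3433 against at most 111, and the adhesion gene Alcam, with 604 against at most 136. Alcam had a log2 difference of -1.28 on 6 arrays and -0.55 with shLuc replicate 3 left out, and neither passed (adjusted p = 0.57 and 0.19 from limma). The choice of Cd200 followed a look at its values. The median log2 difference of the 29 was 0.05 on 6 arrays and -0.06 without shLuc replicate 3, beside -0.03 and -0.04 over all probe sets.

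Of 39 measured genes of ligands, co-receptors and partners of the 10 proteins, 0 were higher or lower at the study's thresholds in limma. The smallest p belonged to Tlr4, the signaling receptor that CD14 serves, with 160.2, 185 and 154 in shLuc cells and 102, 129.6 and 110.5 in shSca-1 cells. Its log2 difference was -0.55 (standard error 0.16, unadjusted p = 0.011, adjusted p = 0.37 from limma), and it was past the study's thresholds without shLuc replicate 3 (-0.60, unadjusted p = 0.0055). Hyal2, a hyaluronidase gene, had 0.35 (unadjusted p = 0.016, adjusted p = 0.42 from limma). Znrf3, a Wnt receptor ligase gene that R-spondins act on, had -0.75 and Srgn, the gene of a proteoglycan that binds CD44, -1.20 near background (adjusted p = 0.59 and 0.60 from limma). Znrf3 was 243 on shLuc replicate 3 and at most 125 elsewhere, and without that array the differences were -0.37 and -0.97 (adjusted p = 0.48 and 0.56 from limma). Without shLuc replicate 3, Tgfbr2, a TGF-β receptor gene, and Msn, which encodes moesin, a linker of CD44 to actin, were lower at an adjusted p under 0.05. The 39 thus held 0 higher and 2 lower, beside 0.842% and 1.92% of all probe sets. The log2 differences of Tgfbr2 and Msn were -0.43 and -0.37 (adjusted p = 0.021 and 0.020 from limma), and neither passed the study's thresholds. On 6 arrays they were -0.17 and -0.22 (adjusted p = 0.85 and 0.66 from limma). Both were named after their values were seen. The median log2 difference of the 39 was -0.09 on 6 arrays and -0.03 without shLuc replicate 3, beside -0.03 and -0.04 over all probe sets.

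Partners of EpCAM and CD44 were among the genes high on shLuc replicate 3. Of the 39, 6 were at 100 or more there and over 4 times every other array, against 1.26% of all probe sets. For all lists but the members, the brightest probe set was taken by mean log2 intensity over all 6 arrays, this one included. That choice favours a probe set high on this array, so the counts are a description. Cldn7, a claudin gene whose product binds EpCAM, was 2326 on it and at most 24.5 on the others. Esrp1, a splicing factor gene that sets the epithelial isoforms of CD44, was 1932 on it and at most 14.1 elsewhere. The related gene Esrp2, in the same list, was not high on it, with 275 against 192 to 311 on the others. The matriptase gene St14 was 633 against at most 12.7, and Spint1, which encodes an inhibitor of matriptase, was 1032 against at most 65.4. F2r, the gene of the thrombin receptor PAR1 through which PROCR signals, was 314 against at most 31.7, and Lbp, which hands lipopolysaccharide to CD14, 232 against at most 27.5. These 6, and Esrp2, were named after their values were seen. Of 16 luminal markers, 13 met the same measure, among them Krt18 with 7175 against at most 65.2, and 0 basal, fibroblast, endothelial or blood markers did. The part of luminal cells in the values of shLuc replicate 3 was not tested.

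**Figure D3:**
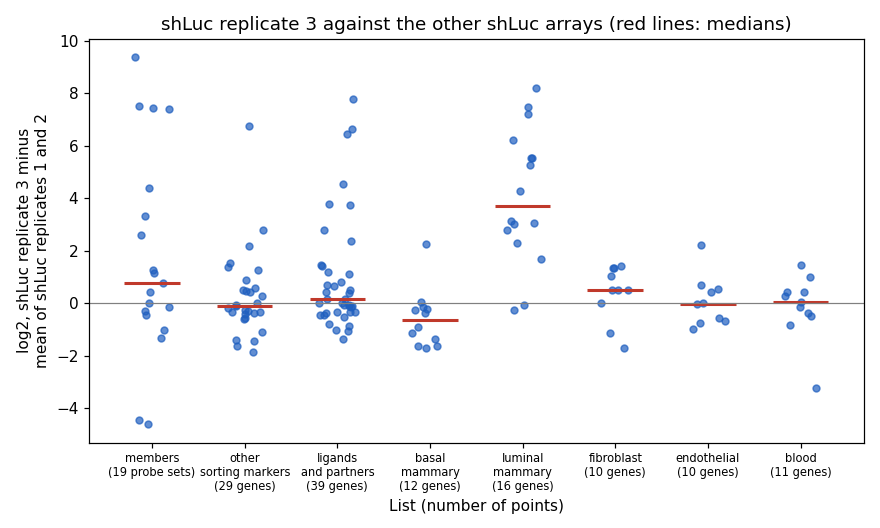
Log2 intensity of shLuc replicate 3 minus the mean of shLuc replicates 1 and 2 for the 19 member probe sets and for the genes of 7 lists. Points are probe sets or genes and red lines are medians, at 0.79 for the members, 3.70 for luminal markers and -0.63 for basal markers.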

How the data were processed

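Total RNA of cultured cells was hybridized to Affymetrix arrays, 3 per shRNA. The authors computed intensities with dChip (PM-MM model, invariant set normalization), and the deposited values are linear intensities. Their dChip version and genome build are not given in the sources used here. Of 45101 probe sets, 64 controls were left out. Intensities were floored at 1 and put on the log2 scale. The contrast of shSca-1 and shLuc was fitted by lmFit and eBayes (trend in the variance) of limma 3.58.1 under R 4.3.3, with p-values adjusted by the Benjamini-Hochberg method over 45037 probe sets. The study's p and fold thresholds were applied to these values. The script was tested on simulated data.

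Probe sets were named from the platform annotation, in which 34945 of those tested have 1 symbol, 932 several and 9160 none. The probe set of Ly6a was named through the study's own gene list. The members and lists were chosen with earlier results of these data known. The rule for named genes took all members, list genes past the study's thresholds or, where fewer than 4, the 4 with the smallest p, and the 3 brightest markers of each cell type list, of which the text names some. Promoters are from RefSeq. Arrays with the same replicate number did not deviate together (correlations -0.043, -0.020 and -0.029 across probe sets), so they were not paired. Alternatives were quantile normalization, median centring, floors of 16 and 64, removal of probe sets below the 40 percentile of mean intensity on the log2 scale, eBayes without the trend, the methods' t-test, a replicate block, the mean of a gene's probe sets and leaving out each array. Precision is limited by having 3 arrays a group. The study's flow cytometry and transplantation data were not analyzed here.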

Additional observations from a re-analysis of the deposited data

How the results depend on the processing

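The counts of 0 members past the study's thresholds and past an adjusted p under 0.05 were 0 under each alternative run for them, the replicate block among them. The mean of a gene's probe sets was run for the other lists only. Of the other sorting markers, 2 were past the study's thresholds, 1 of them Ly6a, the target of the shRNA. The count fell to 1 with floors of 16 or 64, no trend in the variance, the methods' t-test and a replicate block. It was 1 to 2 when 1 array was left out. It was 1 without shLuc replicate 1 and without each shSca-1 array. Without shLuc replicate 3 the 2 were Ly6a and Notch1. The count of 0 ligands and partners was 0 to 1 when 1 array was left out, with Tlr4 past the thresholds without shLuc replicate 3. A replicate block changed no other of these counts.

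Leaving out 1 array turned the sign of several log2 differences, mostly at the removal of shLuc replicate 3. The range over these removals was -2.72 to 1.00, -2.76 to 0.96 and -2.71 to 1.15 for Cd24a by 1448182_a_at, 1416034_at and 1437502_x_at. It was -4.19 to 0.55 for Epcam 1416579_a_at, -0.46 to 0.18 for Epcam 1447899_x_at, -1.43 to 0.92 for Prom1, -1.75 to 0.15 for Kit 1452514_a_at and -1.01 to 0.36 for Cd14. Eng had -0.21 to 2.02 by 1417271_a_at and -0.055 to 2.27 by 1432176_a_at. Near background, Cd44 1443265_at had -0.22 to 0.83, Lgr5 1444519_at -0.18 to 0.49 and Lgr5 1450988_at -0.41 to 0.40. Lgr5 1450988_at also turned to 0.032 after median centring and to 0.17 with a floor of 16, and the cause was not tested. No other alternative turned a sign. The floors left some dim probe sets without a difference, and the filter kept 15 of the 19.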
